A study of Mus musculus with 16 samples.

Results

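Interferon-inducible GTPases were followed in the macrophages of irradiated, transplanted mouse brains. The 9 genes were taken by symbol from the 24411 genes of the deposited exon count table, as Gbp2, Gbp3, Gbp5, Gbp7, Gbp9, Irgm1, Irgm2, Igtp and Iigp1, and each symbol matched 1 gene. The challenge was lipopolysaccharide (LPS), the endotoxin of Gram-negative bacteria, given to the whole animal. Gbp2 rose most after LPS, in graft-derived cells and in host microglia, while Irgm2 fell in both. After LPS engrafted cells held more Gbp9 than host microglia did, and without LPS they held more Iigp1.

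Guanylate-binding proteins (Gbp) and immunity-related GTPases (Irgm1, Irgm2, Igtp and Iigp1) are GTP-hydrolyzing proteins that interferons induce in macrophages through interferon receptors and the transcription factors downstream of them. They coat the vacuoles of intracellular pathogens and the surface of cytosolic bacteria, and guanylate-binding proteins help caspase-11, encoded by Casp4, to sense bacterial LPS. Irgm1, Irgm2 and Igtp (also called Irgm3) are regulators that sit on the cell's own membranes and hold effectors such as Iigp1 (Irga6) inactive there.

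All 16 libraries came from 8 wild-type C57BL/6J mice that had been irradiated with 950 cGy and given donor bone marrow. The controls are thus irradiated, transplanted mice as well, and none of the 16 libraries holds microglia from an unirradiated brain. The study did compare engrafted cells with microglia of unirradiated mice of like age, and reports that they differed. Donor-derived cells carry the CD45.1 form of the leukocyte antigen CD45 and host cells the CD45.2 form, and 10000 cells of each kind were sorted per brain, so that each mouse gave a pair of libraries. The labels name 3.5 and 9 months after transplantation without assigning either to single libraries. The study states 9 months for the chimeras that were sequenced and for those that were challenged. Mice 1 to 4 received LPS at 2.5 mg/kg and were taken 12 h later, while mice 5 to 8 were left untreated, which gives 4 groups of 4 libraries. The methods name CD11b-positive cells negative for the surface proteins Ly6C and Ly6G as the sorted fraction, and the labels give neither the age nor the sex of a mouse.

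The 9 genes lie on 4 mouse chromosomes (NCBI37/mm9, positions as in the deposited table), and the reads counted are those on their exons. Gbp5 (chr3:142159898-142185308), Gbp7 (chr3:142193300-142213115), Gbp3 (chr3:142223460-142236176) and Gbp2 (chr3:142283627-142300972) stand in a row on the plus strand within 141075 bases, with Gbp2b between Gbp3 and Gbp2. Gbp9 (chr5:105507413-105539311, minus strand) lies between Gbp8 and Gbp4. Igtp (chr11:58013058-58021094) and Irgm2 (chr11:58028479-58036285) are 7385 bases apart on the plus strand, Irgm1 (chr11:48678751-48684848) is on the minus strand of the same chromosome, and Iigp1 stands apart from the others. Sequence shared between family members can move or lose uniquely mapped reads. Of the stretches of 50 bases in each gene's longest transcript, between 0% (Irgm1) and 10.1% (Igtp, all shared with Irgm2) also occurred in another gene. In the last 1000 bases, where reads primed from the poly(A) tail gather, the share was 4% for Igtp, 0.526% for Gbp9 and 0% for the other 7 genes, so Igtp is the member that shares most there.

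The promoters of the members are shown because one short motif is common to all that could be read. RefSeq promoter windows (GRCm38.p6, 250 bases before to 50 after the transcript start) were matched for 7 of the 9 genes, and no window was at hand for Gbp9 and Iigp1. The core of the interferon-stimulated response element, searched on both strands as GAAA followed by another GAAA with a pair of free bases between them, was found in a window of 7 of 7 matched genes, against 3.99% of the 27025 genes with windows of the same length. Below, 60 bases on the gene's strand are given for each, read 5′ to 3′, with the matching letters in capitals. In the 4 guanylate-binding protein genes the match is on the other strand and so appears as a pair of TTTC repeats.
Gbp2, chr3:142620579-142620638, plus strand: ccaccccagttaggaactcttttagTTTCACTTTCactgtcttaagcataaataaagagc
Gbp3, chr3:142559980-142560039, plus strand: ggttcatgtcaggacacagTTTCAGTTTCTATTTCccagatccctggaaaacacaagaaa
Gbp5, chr3:142496744-142496803, plus strand: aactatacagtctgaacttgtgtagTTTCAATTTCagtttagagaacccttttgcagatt
Gbp7, chr3:142530258-142530317, plus strand: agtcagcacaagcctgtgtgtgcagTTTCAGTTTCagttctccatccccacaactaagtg
Irgm1, chr11:48871421-48871480, minus strand: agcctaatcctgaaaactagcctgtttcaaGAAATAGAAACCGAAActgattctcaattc
Irgm2, chr11:58214888-58214947, plus strand: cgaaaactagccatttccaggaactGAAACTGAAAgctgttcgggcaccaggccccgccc
Igtp, chr11:58199496-58199555, plus strand: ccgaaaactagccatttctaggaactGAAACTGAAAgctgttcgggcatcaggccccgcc

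Counted from the transcript start, the first base of the match stood at -59 in Gbp2, -165 in Gbp5, -53 in Gbp7, -64 in Irgm2 and -34 in Igtp. Gbp3 and Irgm1 each held 2 overlapping matches, the first of them beginning at -45 and -30, and another window of Gbp3, at a later start, held none. The core of the gamma-activated site, TTCNNNGAA, was present in 4 of the 7 genes (Gbp5, Gbp7, Irgm2 and Igtp) and in 9.55% of all genes. An AP-1 core, TGANTCA, was present in Gbp2 and Irgm1 (8.97% of all genes), and an NF-kappaB core, searched as GGG and TTTCC with a pair of free bases between them, in Gbp5 alone (1.89% of all genes). No match of one motif overlapped a match of another. The windows of Igtp and Irgm2 were the most alike, with 69.9% identical aligned bases against 49.5 to 56.2% for the other pairs. A match is a string of letters and no binding was measured here.

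Libraries held 395283 to 1203597 reads on genes (median 820587.5), and the shallowest was that of engrafted cells of LPS mouse 4. Levels are given as CPM, reads per 1e+06 reads on genes with TMM scaling, 3 reads were worth 2.39 to 8.41 CPM, and such limits cover counting error only. The 4 libraries of mice 4 and 8, both populations of each, carried 1077 to 9066 CPM of red blood cell genes against 3.19 to 243 CPM in the other 12. Summed microglia markers (10 genes, among them P2ry12 and Tmem119) reached 20457 to 23584 CPM in host controls and 10854 to 12783 CPM in engrafted controls. Summed markers of engrafted brain macrophages (8 genes, among them Ms4a7 and Apoe, some of which the study named from these samples) reached 61948 to 86330 CPM in engrafted and 4111 to 7849 CPM in host controls. After LPS the microglia sum was 8218 to 9194 CPM in host and 3159 to 4320 CPM in engrafted cells, so host LPS libraries lay below engrafted controls. The engrafted list then summed to 47829 to 94586 CPM in engrafted cells, most of it Apoe, and 3142 to 4794 CPM in host cells. Within each treatment both sums went with the labels. In controls Fcrls (means 2310 and 2337 CPM in engrafted and host cells) and Cx3cr1 (3665 and 3936 CPM) differed little. Of the 9 T and NK cell markers present, the sum did not exceed 30.8 CPM in a library. Fewer cells of a type and less RNA per cell cannot be told apart in such bulk libraries.

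LPS changed the GTPases of engrafted cells in both directions. A gene was called where it changed by more than 2-fold and edgeR's quasi-likelihood test, adjusted by Benjamini-Hochberg across all genes tested, gave p below 0.05. By that rule 4 of the 9 genes rose (Gbp2, Gbp9, Gbp5 and Irgm1) and 2 fell (Irgm2 and Iigp1), against 10.2% and 11.3% of the 7609 genes tested and 21.5% in either direction. Gbp3 and Gbp7 passed the adjusted p with a fold change below 2, which makes 8 of 9 members against 38.7% of all genes at any fold. Control and LPS libraries did not overlap for 5 of the 9, against 35% of all genes. Without engrafted LPS 1 the count called higher was 2 (Gbp2 and Gbp9), with Irgm1 under 2-fold, Gbp5 under the filter, and Gbp3 and Gbp7 at adjusted p = 0.108 and 0.136. With at least 10 reads required in every library it was 1 higher (Gbp9) and 0 lower, since Gbp2, Gbp5, Irgm2 and Iigp1 were then not tested. The median log2 fold change of the 9 was 0.80, beside -0.01 for all genes tested.

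**Figure D1:**
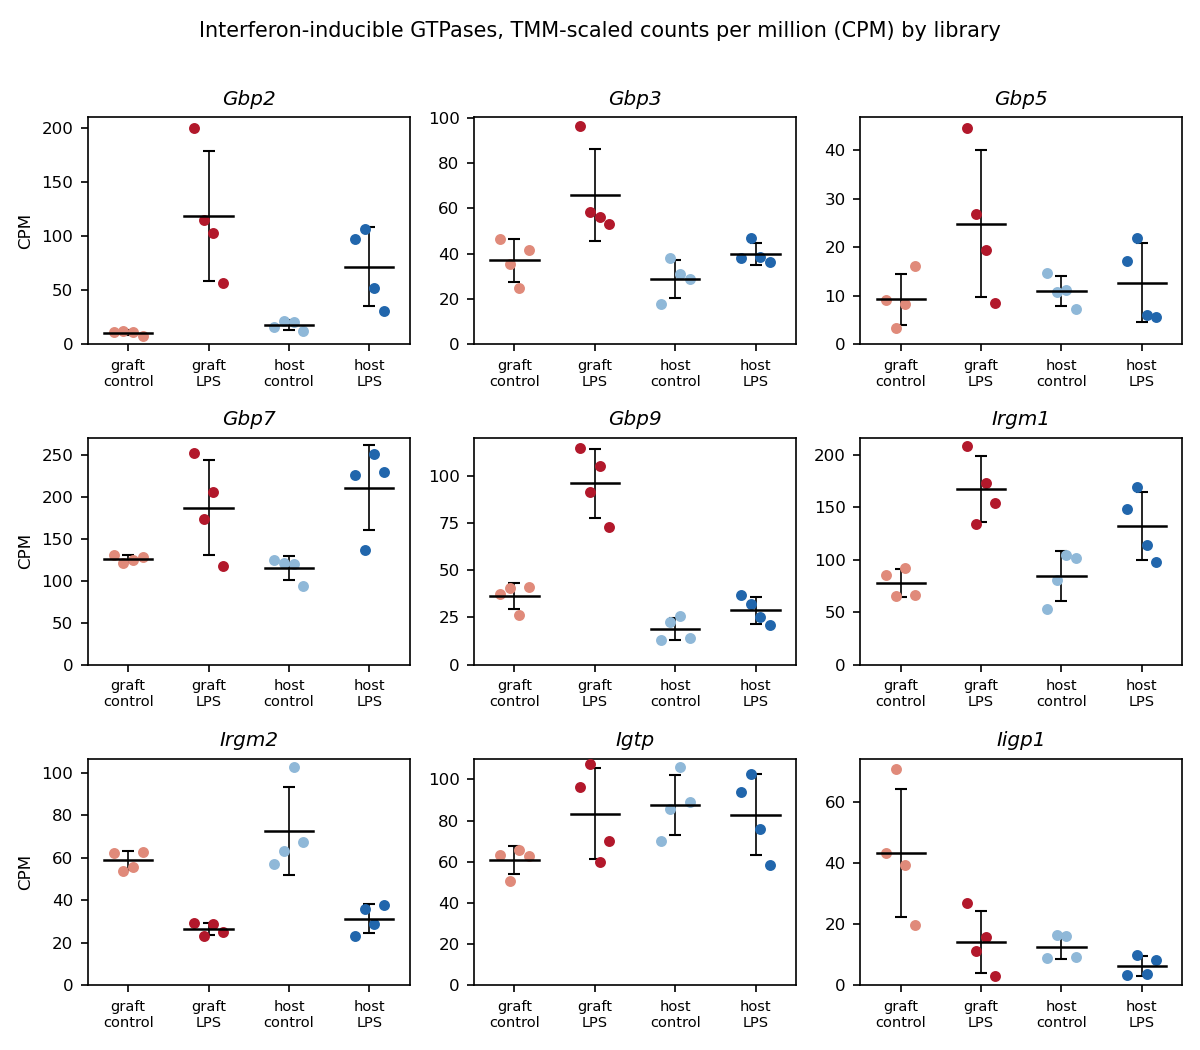
Level of each GTPase in TMM-scaled CPM (vertical axes, from 0) in the 16 libraries. Points are libraries in mouse order, bars are the mean of 4 and the SD, and Gbp2 in engrafted cells moves from a mean of 10.4 CPM in controls to 118 CPM after LPS.

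Monocyte transcripts moved with the LPS contrast in engrafted cells, although Ly6C-positive cells were gated out. The 6 monocyte markers summed to 57.6 to 103 CPM in engrafted controls and 877 to 1973 CPM after LPS, with none at 0 over the LPS libraries. In host microglia they summed to 5.58 to 20.4 CPM in controls and 5.73 to 18.1 CPM after LPS. Ly6c2 went from a mean of 30.1 to 716 CPM, Plac8 from 20.8 to 405 CPM, Chil3 from 22.1 to 210 CPM and Vcan from 0.504 to 24.8 CPM in engrafted cells, while Ly6c1 went from 8.94 to 6.35 CPM. By mouse the sums after LPS were 1973, 1502, 1369 and 877 CPM in mice 1 to 4. Summed endothelial markers (6 genes) went from 39.3 to 92.7 CPM in engrafted controls to 203 to 255 CPM after LPS, most of it Ly6a (mean 53.8 and 199 CPM), with Cldn5, Cdh5 and Tek at or near 0. The 7 neutrophil markers summed to 103 to 388 CPM in engrafted controls and 2.44 to 174 CPM after LPS, mainly Ngp and Camp, against 0 to 1.94 CPM and 0.997 to 8.35 CPM in host microglia, and Mpo and Cxcr2 were at 0 in engrafted controls. The part of these transcripts in the GTPase changes of engrafted cells, and in the differences of Gbp9 and Iigp1 between the populations, was not tested.

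In host microglia fewer members passed. Gbp2 rose, against 7.66% of 8238 genes, and Irgm2 fell, against 10.4%, so that 2 of 8 members tested were called, near the 18% of all genes. Gbp7 and Irgm1 passed the adjusted p with a fold change below 2, which makes 4 of 8 against 39.7% at any fold, and the libraries of 3 of 8 did not overlap, against 35.7%. Iigp1 did not reach the filter on low counts in this comparison. The median log2 fold change of the 8 was 0.50, beside 0.01 for all genes tested. Each of these counts of called members, in both populations, was equal without the 4 libraries rich in red blood cell transcripts.

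**Figure D2:**
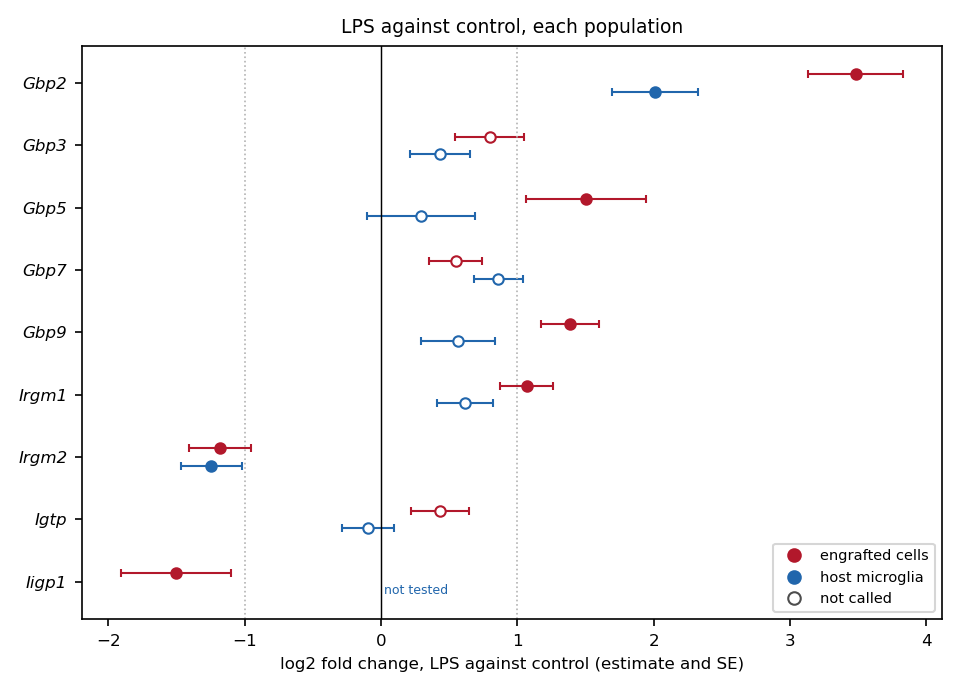
Log2 fold change of LPS against control (horizontal axis) for each GTPase in engrafted cells (red) and host microglia (blue), with the SE as bars. Filled points were called, dotted lines mark 2-fold, and Irgm2 and Iigp1 lie to the left of 0 while Gbp2 lies farthest to the right.

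Gbp2 is a prenylated guanylate-binding protein that is recruited to vacuoles and bacteria. In engrafted cells it was at 11.1, 11.8, 11.5 and 7.199 CPM in control mice 5 to 8 and at 200, 115, 103 and 56.1 CPM in LPS mice 1 to 4. In host microglia it was at 16.1, 21.4, 20.7 and 12.3 CPM in controls and at 97.5, 107, 51.9 and 30.6 CPM after LPS. Control and LPS libraries did not overlap in either population, and mouse 4 had the lowest LPS value in both. Gbp2 rose by a log2 fold change of 3.48 (SE 0.35) in engrafted cells (edgeR adjusted p = 1.56e-07) and of 2.01 (SE 0.31) in host microglia (edgeR adjusted p = 2.31e-05). In controls all 4 host libraries lay above all 4 engrafted ones (two-sided exact permutation test, p = 0.029 unadjusted, the smallest that 4 against 4 libraries allow), on 4 to 26 reads each, too few for the fitted test. After LPS the engrafted library was the higher of the pair in 4 of 4 mice, but the groups overlapped (log2 fold change 0.77, SE 0.34, edgeR adjusted p = 0.141).

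Whether Gbp2 responded more in engrafted cells was tested as the interaction of population and LPS over all 16 libraries. The difference of the log2 fold changes was 1.47 (SE 0.55, edgeR adjusted p = 0.125) and was not called. With the mouse as a block it was 1.43 (SE 0.38, edgeR adjusted p = 0.0191) and was called. No member was called in this comparison without the block, against 4.95% of 8847 genes (5.88% at any fold), and 2 members, Gbp2 and Gbp9, had an unadjusted p below 0.05. DESeq2 called 0 members as well. The difference for the other 8 genes ran from -0.50 (Iigp1, SE 0.65) to 1.21 (Gbp5, SE 0.65).

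Gbp5, linked to assembly of the NLRP3 inflammasome, was scarce, with 2 to 40 reads in a library. Engrafted cells had 9.07, 3.37, 8.19 and 16.2 CPM in control mice 5 to 8 and 44.7, 26.8, 19.5 and 8.41 CPM in LPS mice 1 to 4. Of the 4 LPS libraries 3 lay above every control and that of mouse 4 lay among them. The log2 fold change was 1.50 (SE 0.44, edgeR adjusted p = 0.011). Host microglia had 7.15 to 14.6 CPM in controls and 5.56 to 21.9 CPM after LPS, with a log2 fold change of 0.29 (SE 0.40, edgeR adjusted p = 0.592). After LPS Gbp5 was higher in engrafted cells in 4 of 4 mice, by a log2 fold change of 1.04 (SE 0.44) that did not pass (edgeR adjusted p = 0.122). Without the engrafted library of mouse 4, which held 3 reads of Gbp5, it was 1.23 (adjusted p = 0.0398) and was called.

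Gbp9, a neighbor of Gbp8 and Gbp4 in the chromosome 5 cluster, set the populations apart. Engrafted cells had 37.3, 40.5, 26.2 and 41.4 CPM in control mice 5 to 8 and 115, 91.5, 105 and 72.9 CPM in LPS mice 1 to 4. Host microglia had 13.2, 22.3, 25.5 and 14.3 CPM in the same controls and 36.7, 31.9, 25.4 and 20.9 CPM in the same LPS mice. The engrafted LPS libraries stood above all 12 others, and the engrafted library was the higher of the pair in 8 of 8 mice. Gbp9 rose after LPS in engrafted cells by a log2 fold change of 1.39 (SE 0.22, edgeR adjusted p = 3.83e-05), and the host value of 0.56 (SE 0.27) did not pass (edgeR adjusted p = 0.0998). The 2 responses differed by 0.81 (SE 0.34, edgeR adjusted p = 0.18), which did not pass.

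Between populations Gbp9 was the only member called after LPS, 1 of 8 tested against 11.1% of 7843 genes in either direction, with a log2 fold change of 1.77 (SE 0.22, edgeR adjusted p = 1.29e-05) in favor of engrafted cells. Leaving out single libraries gave 1.66 to 1.90. With Gbp3, 2 of 8 members passed the adjusted p at any fold, against 17.1% of all genes, and these 2 of 8 also had groups that did not overlap, against 20.6%. In controls the value was 0.95 (SE 0.27, edgeR adjusted p = 0.00865), under the 2-fold limit, with no overlap between the groups. It crossed that limit without host control 6 (1.03), engrafted control 7 (1.07) or host control 7 (1.14), and single libraries left out gave 0.83 at the lowest. Over all alternatives the adjusted p of Gbp9 in controls ran from 0.0054 to 0.067. That of Gbp3 between populations after LPS ran from 0.015 to 0.1685, so neither passed in every fit.

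**Figure D3:**
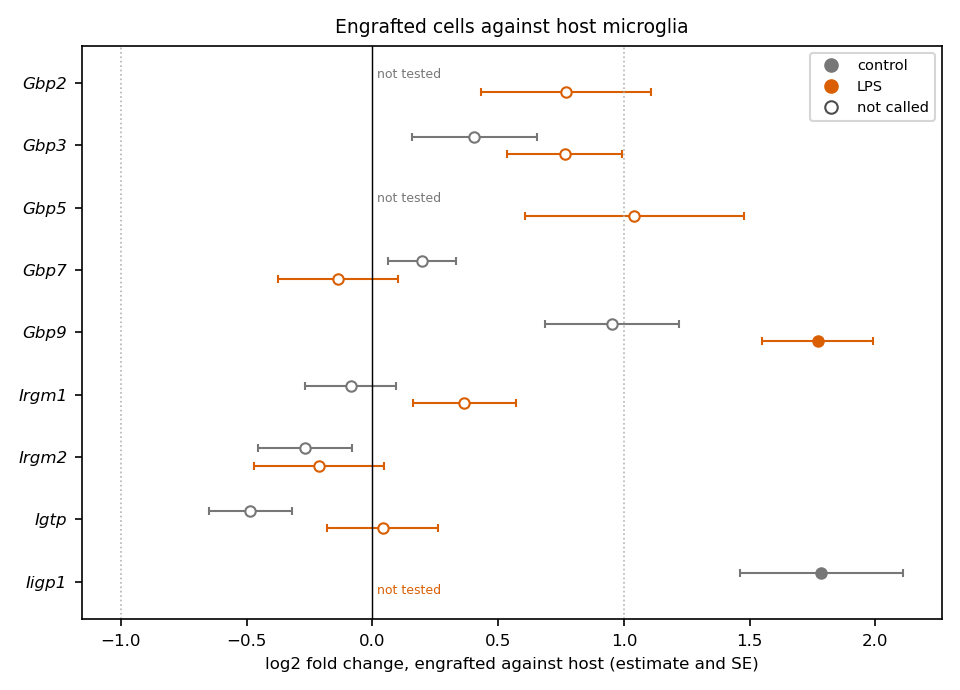
Log2 fold change of engrafted cells against host microglia (horizontal axis) for each GTPase in controls (gray) and after LPS (orange), with the SE as bars. Filled points were called, and these are Iigp1 in controls at 1.79 and Gbp9 after LPS at 1.77.

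Gbp3 and Gbp7 lie next to each other on chromosome 3 and moved less. Gbp3 was at 46.3, 35.4, 24.6 and 41.4 CPM in engrafted controls and 96.2, 58.6, 55.9 and 53.3 CPM in engrafted cells after LPS, with no overlap (log2 fold change 0.80, SE 0.25, edgeR adjusted p = 0.0169). In host microglia Gbp3 was at 17.6 to 37.9 CPM and 36.2 to 46.9 CPM, which overlapped (0.43, SE 0.22, edgeR adjusted p = 0.129). After LPS all 4 engrafted libraries lay above all 4 host libraries for Gbp3 (0.76, SE 0.23, edgeR adjusted p = 0.0271), below 2-fold. In controls the Gbp3 difference was 0.41 (SE 0.25, edgeR adjusted p = 0.254).

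Gbp7, reported to join autophagy and oxidase components on phagosomes, was covered by 42 to 225 reads in a library. Its host microglia values were 124, 121, 120 and 93.9 CPM in controls and 226, 137, 251 and 230 CPM after LPS, without overlap (log2 fold change 0.86, SE 0.18, edgeR adjusted p = 0.00059). Without host LPS 2, the library at 137 CPM, the host value of Gbp7 was 1.05 (adjusted p = 4.3e-06) and was called. Engrafted cells had 121 to 131 CPM in controls and 118 to 252 CPM after LPS (0.55, SE 0.19, edgeR adjusted p = 0.0315). Between the populations Gbp7 differed by 0.20 (SE 0.13, edgeR adjusted p = 0.311) in controls and -0.14 (SE 0.24, edgeR adjusted p = 0.776) after LPS.

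Among the regulators, Irgm1 and Irgm2 moved in opposite directions. Irgm1, which acts in autophagy and mitochondrial upkeep, was at 85.6, 65.7, 91.8 and 66.6 CPM in engrafted controls and 208, 134, 173 and 154 CPM in engrafted cells after LPS, with no overlap. Its log2 fold change was 1.07 (SE 0.19, edgeR adjusted p = 0.000187), and 0.96 (adjusted p = 0.00134) without engrafted LPS 1, which is under the 2-fold limit. In host microglia Irgm1 was at 52.7 to 104 CPM in controls and 97.4 to 169 CPM after LPS, which overlapped (0.62, SE 0.20, edgeR adjusted p = 0.0189). The populations differed in Irgm1 by -0.09 (SE 0.18, edgeR adjusted p = 0.776) in controls and by 0.36 (SE 0.20, edgeR adjusted p = 0.265) after LPS.

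Irgm2, a regulator known to restrain caspase-11, was the one member called lower after LPS in both populations. Engrafted cells had 62.5, 53.9, 55.7 and 63.0 CPM in controls and 29.1, 23.2, 28.6 and 25.2 CPM after LPS. Host microglia had 57.1, 63.1, 103 and 67.4 CPM in controls and 22.9, 35.9, 29.0 and 37.6 CPM after LPS. The highest of the 8 LPS libraries lay below the lowest of the 8 controls. The log2 fold change of Irgm2 was -1.18 (SE 0.23, edgeR adjusted p = 0.000339) in engrafted cells and -1.24 (SE 0.22, edgeR adjusted p = 0.00012) in host microglia. The interaction was 0.05 (SE 0.32, edgeR adjusted p = 0.963), and that p does not show that the responses were alike.

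Reads of Irgm1 and Irgm2 can be compared within a library as a ratio, a measure chosen after their values were seen and given without a test. Irgm1 had 1.06 to 1.65 reads per read of Irgm2 in engrafted controls (median 1.29) and 0.923 to 1.50 in host controls (median 1.15). After LPS the ratio was 5.79 to 7.15 in engrafted cells (median 6.08) and 2.59 to 6.45 in host microglia (median 4.32). The lowest ratio after LPS, in the host library of mouse 4, was above the highest control.

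**Figure D4:**
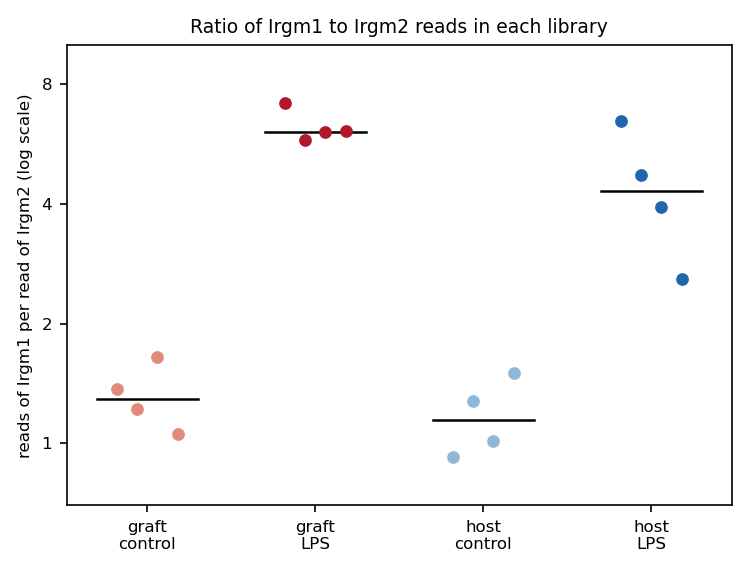
Reads of Irgm1 per read of Irgm2 in each library (vertical axis, log scale), by group, with the median as a line. All 8 control libraries lie between 0.923 and 1.65 and all 8 LPS libraries between 2.59 and 7.15.

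Igtp, the neighbor of Irgm2, did not follow it. Engrafted cells had 63.5, 50.6, 65.5 and 63.0 CPM in controls and 96.2, 107, 59.8 and 70.1 CPM after LPS, and host microglia 70.3, 85.5, 106 and 88.8 CPM in controls and 94.0, 103, 76.1 and 58.4 CPM after LPS. The LPS response was 0.43 (SE 0.21, edgeR adjusted p = 0.114) in engrafted cells and -0.09 (SE 0.19, edgeR adjusted p = 0.724) in host microglia, so neither passed. In controls every host library lay above every engrafted library, at a log2 fold change of -0.49 (SE 0.16, edgeR adjusted p = 0.0284), which is under 2-fold. After LPS the difference was 0.04 (SE 0.22, edgeR adjusted p = 0.935).

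Iigp1 (chr18:60535683-60552283, plus strand), an effector that disrupts parasite vacuoles, differed between the resting populations. Engrafted controls had 43.3, 70.8, 39.3 and 19.8 CPM and the host microglia of the same mice 8.78, 16.5, 15.95 and 9.19 CPM, without overlap. These values rest on 11 to 43 reads in an engrafted control and 6 to 20 in a host control. It was the single member called in controls, 1 of 7 tested against 11% of 8042 genes, at a log2 fold change of 1.79 (SE 0.32, edgeR adjusted p = 0.000121). Single libraries left out gave 1.48 to 1.99, and with at least 10 reads required in every library Iigp1 was not tested. With Gbp9 and Igtp, 3 of 7 members passed the adjusted p at any fold in controls, against 27.3% of all genes, and these 3 of 7 had groups that did not overlap, against 26.6%. After LPS engrafted cells had 26.8, 11.0, 15.6 and 2.80 CPM in mice 1 to 4, on 1 to 24 reads each, a fall of 1.50 on the log2 scale (SE 0.40, edgeR adjusted p = 0.00568) with overlapping groups. Host microglia after LPS had 3.44, 9.97, 3.62 and 8.35 CPM, on 3 to 10 reads. This was too few for the fitted test, and an exact two-sided permutation test gave p = 0.114 unadjusted for the host response of Iigp1. After LPS the 2 populations overlapped (exact permutation p = 0.257 unadjusted), with the engrafted library higher in 3 of 4 mice.

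Ordered by group mean, Gbp2, Gbp3, Gbp5, Gbp9 and Irgm1 were highest in engrafted cells after LPS, Gbp7 in host microglia after LPS, Irgm2 and Igtp in host controls and Iigp1 in engrafted controls. Neighbors in that order were set apart with no shared range at the top for Gbp3 and Gbp9, between host LPS and host controls and again between host and engrafted controls for Gbp2, and between controls and LPS for Irgm2. For Gbp5, Gbp7, Irgm1, Igtp and Iigp1 each pair of neighbors overlapped. Together the 9 genes took 0.0394 to 0.0560% of the reads of a control library and 0.0506 to 0.0994% after LPS.

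Among the other interferon-inducible GTPases (22 genes listed, 21 in the table) few were abundant enough to test, 7 in engrafted cells and 5 in host microglia under LPS. Ifi47 (Irgd), another immunity-related GTPase, was higher in engrafted cells in controls (mean 62.7 against 5.21 CPM, log2 fold change 3.48, SE 0.33, edgeR adjusted p = 6.47e-09) and after LPS (136 against 7.87 CPM, 4.07, SE 0.34, edgeR adjusted p = 8.41e-08). Host libraries held 1 to 12 reads of Ifi47 in controls and 2 to 11 after LPS. Ifi47 passed the filter through the engrafted libraries, so the size of these folds is uncertain. It also rose with LPS in engrafted cells (1.08, SE 0.24, edgeR adjusted p = 0.00147). Gbp8, beside Gbp9, was higher in engrafted controls (26.4 against 4.07 CPM, 2.76, SE 0.38). A host control library held 3 to 5 reads of Gbp8, so the size of that fold is uncertain too. In engrafted cells Gbp8 fell by 1.02 with LPS (SE 0.34, edgeR adjusted p = 0.0248), on 9 to 36 reads in controls and 2 to 16 after LPS.

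Gm4951, on the same chromosome as Iigp1, fell after LPS in engrafted cells (29.9 to 10.1 CPM, -1.59, SE 0.36, edgeR adjusted p = 0.00152) and in host microglia (15.6 to 6.67 CPM, -1.25, SE 0.37, edgeR adjusted p = 0.00908), and was higher in engrafted controls (1.01, SE 0.29, edgeR adjusted p = 0.00979). Mx1, a gene of the dynamin-like GTPases, rose with LPS in engrafted cells (1.06, SE 0.20) and was then higher there than in host microglia (1.24, SE 0.24, edgeR adjusted p = 0.00123). Gbp2b, the gene next to Gbp2, had 0 reads in 3 of the groups and at most 3 reads in an engrafted control. Gbp10 had 0 reads in every library.

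Interferon gamma, the classical inducer of the family, was itself near 0. Ifng had 0 to 3 reads in a library and Ifnb1, the type I interferon beta, 0 to 6. Of the 9 listed genes of interferon gamma signalling, 8 were tested and neither edgeR nor DESeq2 called one in any comparison, with 3 of the 8 at an unadjusted p below 0.05 under LPS in each population and 4 between the populations in controls and after LPS. Irf8 was lower after LPS, at -0.996 (SE 0.17, edgeR adjusted p = 9.8e-05) in engrafted cells and -0.61 (SE 0.16, edgeR adjusted p = 0.00517) in host microglia, both under 2-fold. Ifngr1, a receptor chain, was lower in engrafted than host controls (-0.59, SE 0.12, edgeR adjusted p = 0.000545).

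Of 8 type I interferon signalling genes tested, edgeR called 3 for LPS in engrafted cells, against 21.5% of all genes in either direction. In host microglia edgeR called 1 of 8, against 18%, and DESeq2 called 2. Irf7, a factor that amplifies interferon responses, rose in engrafted cells from a mean of 164 to 1093 CPM (log2 fold change 2.69, SE 0.22, edgeR adjusted p = 7.94e-09), exceeded host microglia in controls (1.09) and after LPS (2.79), and had a larger response in engrafted cells (interaction 1.70, SE 0.28, edgeR adjusted p = 0.000314). In host microglia Irf7 was at a mean of 79.8 CPM in controls and 160 CPM after LPS (0.99, SE 0.18, edgeR adjusted p = 0.00013), just under 2-fold. Stat2, part of the complex that binds the interferon-stimulated response element, rose with LPS in engrafted cells (1.08, SE 0.20) and host microglia (1.14, SE 0.19). Ifnar1, a type I interferon receptor chain, was higher in engrafted controls (1.75, SE 0.13) and fell there with LPS (-1.30, SE 0.20), with an interaction of -1.30 (SE 0.25, edgeR adjusted p = 0.00129).

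Of 14 antiviral genes, 7 of 13 tested rose in engrafted cells, against 10.2% of all genes, and 6 of 11 in host microglia, against 7.66%. In engrafted cells the largest changes were in Oasl1 (3.11, SE 0.38), Isg15 (3.08, SE 0.21) and the nucleic acid sensor Zbp1 (2.97, SE 0.25). In host microglia they were in Oasl1 (2.42, SE 0.35), Zbp1 (2.21, SE 0.25) and Ifih1 (1.68, SE 0.22). In controls 3 of 12 were higher in engrafted cells (Ifi44 at 2.17, SE 0.44, Zbp1 at 1.50, SE 0.31, and Oasl2 at 1.46, SE 0.20), against 11% of all genes called in either direction, and after LPS 6 of 12 were, against 11.1%, led by Zbp1 (2.26, SE 0.23), Isg15 (1.86, SE 0.34) and Cmpk2 (1.83, SE 0.50). Host libraries held 2 to 10 reads of Ifi44 in controls and 1 to 14 reads of Cmpk2 after LPS, so the size of those folds is uncertain. Isg15 alone of this list had a called interaction (1.81, SE 0.43, edgeR adjusted p = 0.0102).

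Of 13 interferon gamma targets, Cxcl9, Cxcl10 and Cd274 rose with LPS in both populations, at 1.62 (SE 0.40), 2.31 (SE 0.39) and 2.53 (SE 0.40) in engrafted cells and 1.90 (SE 0.28), 2.00 (SE 0.44) and 1.77 (SE 0.30) in host microglia. Ciita, the MHC class II transactivator, fell in engrafted cells from a mean of 36.8 to 2.77 CPM (-3.62, SE 0.58, edgeR adjusted p = 5.32e-05), on 11 to 42 reads in a control library and 1 to 4 after LPS. Host libraries held at most 1 read of Ciita, so no fold is given between the populations, where it was called in controls. Batf2 was higher in engrafted cells in controls (1.83, SE 0.28) and after LPS (3.15, SE 0.37), on 9 to 15 and 3 to 9 reads in a host library. Cxcl9 was also higher in engrafted controls (1.26, SE 0.39), and Psmb9 (1.42, SE 0.19), Psmb8 (1.31, SE 0.19) and Cd274 (1.08, SE 0.33) were higher in engrafted cells after LPS.

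**Figure D5:**
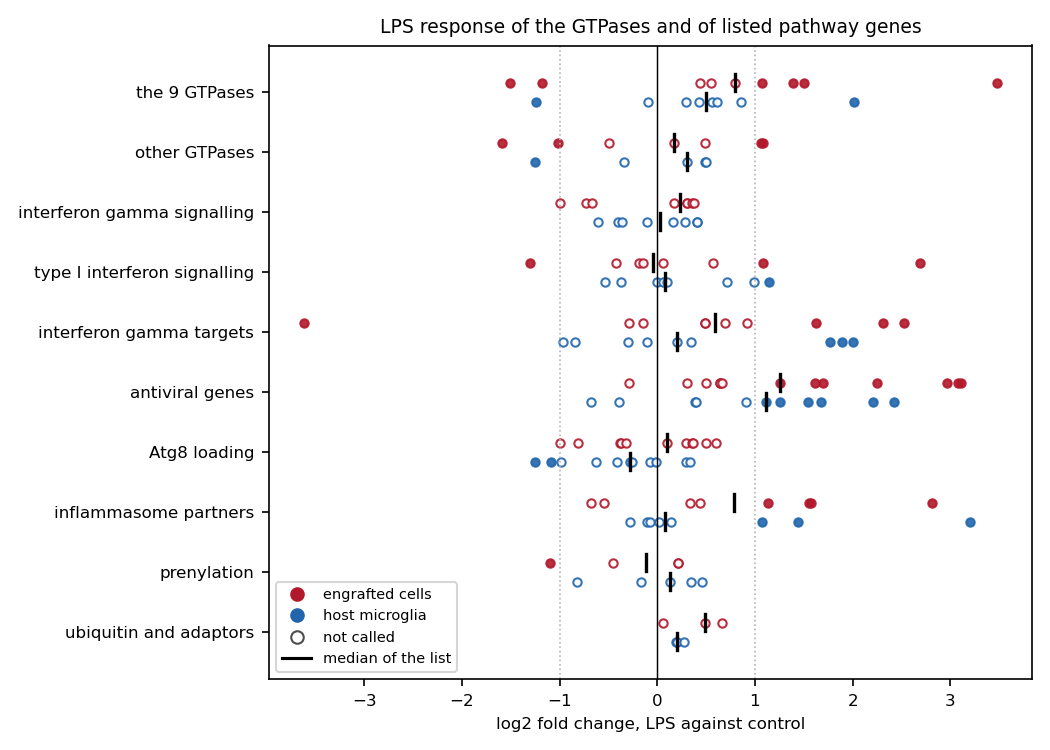
Log2 fold change of LPS against control (horizontal axis) for the 9 GTPases and 9 lists of related genes in engrafted cells (red) and host microglia (blue). Each point is a gene that was tested, filled where called, black ticks are list medians, and the antiviral list has medians of 1.25 and 1.11.

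Of the 11 genes of the Atg8 conjugation system, which guides GTPase loading onto vacuoles, edgeR and DESeq2 called none in engrafted cells under LPS, with 4 at an unadjusted p below 0.05. Over all genes 21.5% were called there by edgeR in either direction. In host microglia 2 of 11 fell, against 10.4% of all genes. These were the Atg8 protein gene Map1lc3a (-1.09, SE 0.20, edgeR adjusted p = 0.000179) and Atg10 (-1.25, SE 0.41, edgeR adjusted p = 0.0201). Of 8 inflammasome partners 4 rose in engrafted cells, against 10.2% of all genes. They were Il1b (2.82, SE 0.24), Casp4 (1.57, SE 0.23), Pycard (1.55, SE 0.19) and Nlrp3 (1.13, SE 0.25). In host microglia 3 of 8 rose, against 7.66%, namely Il1b (3.20, SE 0.29), Nlrp3 (1.44, SE 0.18) and Casp4 (1.07, SE 0.25). Pycard, the adaptor ASC, had a called interaction (1.52, SE 0.23, edgeR adjusted p = 0.000113).

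Il1b was higher in engrafted cells in controls (1.40, SE 0.22) and after LPS (1.02, SE 0.30). Of 6 prenylation genes, which serve lipid anchoring of guanylate-binding proteins, Icmt alone was called, lower with LPS in engrafted cells (-1.10, SE 0.30), lower than in host microglia after LPS (-1.03, SE 0.32) and with an interaction of -1.24 (SE 0.37, edgeR adjusted p = 0.0452) that DESeq2 did not call. Of 6 ubiquitin and adaptor genes 3 were tested, and neither edgeR nor DESeq2 called one in a comparison, with 2 at an unadjusted p below 0.05 for LPS in engrafted cells and 0 elsewhere. Over all 9 lists 31.9% of the genes tested were called under LPS in engrafted cells, against 21.5% of all genes, and 23.5% in host microglia, against 18%. Between the populations 16.9% were called in controls, against 11%, and 22.4% after LPS, against 11.1%, and for the interaction 6.67%, against 4.95%. The lists were chosen with earlier results of these data known. Their shares beside those of all genes, pooled or by list, are therefore a description and no test.

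The genes outside the lists whose pattern was most like the mean scaled profile of the 9 GTPases over the 16 libraries, of 8721 ranked, were Dhx58 (Pearson r = 0.90), Socs2 (0.87), Psma2 (0.86), Nab1 (0.86), Tax1bp1 (0.86), Arhgdib (0.85), Snx10 (0.85), Hif1a (0.85), Hat1 (0.84) and Riok3 (0.84). The 16 points come in 8 pairs from the same mouse and in 4 groups, so these values are a description. Between members r ran from 0.88 (Gbp2 and Irgm1) and 0.87 (Gbp3 and Gbp9) down to -0.82 (Gbp2 and Irgm2).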

How the data were processed

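RNA of sorted brain macrophages was captured with oligo(dT), so reads gather near the 3′ ends of transcripts, and was sequenced from 16 libraries of 8 mice. Per the labels, reads were aligned to mm9 with HISAT 0.1.5 and counted with HOMER. The deposited values are raw counts of reads on the exons of 24411 genes. The members and gene lists were chosen with earlier results of these data known.

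Each comparison was fitted over all genes in edgeR 4.0.16 (R 4.3.3; filterByExpr with a minimum count of 10 and a total of 15, TMM, quasi-likelihood test, prior count 0.125 in the fit), with p-values adjusted by the Benjamini-Hochberg method. Calls needed a log2 fold change beyond 1 either way with adjusted p under 0.05, and the SE is the log2 fold change divided by the root of F. Printed CPM are scaled by TMM over the 16 libraries. Members under the filter were compared by an exact permutation test. All members were named, and of each further list the called genes, up to 3 per direction where more than 5 were called. The fits were tested on simulated data.

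Alternatives were other size factors, library totals, DESeq2 1.42.0, limma 3.58.1 on log2 values with a pseudocount of 34, other filters, all libraries in one fit, the mouse as a block and leaving out libraries. A prior count of 2 and leaving out the libraries rich in red blood cell transcripts were chosen after seeing the data. Pairing comes from the design, since both populations were sorted from each mouse. The correlation of paired deviations was -0.0363 to 0.215. With the host libraries of the other mice of the same treatment it was -0.0631 to 0.0111 on average. The same-mouse value was the lower of these in mouse 6 alone. Replicate libraries differed by more than sampling noise (chi-square per degree of freedom 2.07 to 10.1). Sequencing pools are not given in the labels. Results for some listed genes are not reported here.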

Additional observations from a re-analysis of the deposited data

Results flagged for a closer look

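A library stood far from the other 3 of its group in 4 of the 36 combinations of member and group examined by Dixon's test, which by chance marks about 0.05 of such groups. Gbp2 was at 7.199 CPM in engrafted control 8 and at 11.1 CPM in the next library. Gbp3 was at 96.2 CPM in engrafted LPS 1 and at 58.6 CPM in the next. Gbp7 was at 93.9 CPM in host control 8 and at 119.6 CPM in the next. Igtp was at 50.6 CPM in engrafted control 6 and at 63.0 CPM in the next. Both libraries of mouse 8 named here are among the 4 rich in red blood cell transcripts, and the part of that in these values was not tested.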

How the results depend on the processing

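Of 765 values of single members under alternatives, 735 kept their direction and stayed called or not called as in the main fit. Of the others 4 lost the call, 8 gained it and 18 changed sign. A value under 2-fold could cross the adjusted p limit and still count as kept. For LPS in engrafted cells the adjusted p of Gbp3 and Gbp7 reached 0.108 and 0.136 over alternatives. It reached 0.1685 for Gbp3 between populations after LPS, 0.127 for Igtp in controls and 0.0699 for Irgm1 under LPS in host microglia. The mouse as a block moved 1 member call, that of the Gbp2 interaction (1.43), and no other. Over alternatives the adjusted p of that interaction ran from 0.00637 (no filter, 1.51) to 0.256.

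With at least 10 reads required in every library, members called fell to 0 for engrafted against host in controls, and to 1 higher and 0 lower for LPS in engrafted cells. This filter tests fewer genes, and over all genes it left 230 higher and 172 lower in controls, 245 and 136 after LPS, 385 and 431 for LPS in engrafted cells, 381 and 490 for LPS in host microglia, and 141 and 110 for the interaction. With no filter, members called higher were 3 after LPS and 1 for the interaction, and all genes were 895 higher in controls, 857 higher after LPS and 1337 lower for LPS in engrafted cells. With limma, 1 member was called lower for LPS in engrafted cells, where Irgm2 was at -0.96, and 331 genes higher for the interaction. Without the libraries rich in red blood cell transcripts 147 genes were lower for the interaction. For LPS in engrafted cells Irgm1 was at 0.99 with library totals and 0.97 with the strict filter.

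Leaving out single libraries gave 1 to 2 members called higher between populations in controls and after LPS and for LPS in host microglia, 2 to 4 for LPS in engrafted cells, and 135 to 245 genes lower for the interaction (lowest without host LPS 3, and 143 without host control 8).

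Values that changed sign were small. Igtp between populations after LPS was at -0.11 with library totals, which moved the median of all genes by -0.15, at -0.0015 with the strict filter, -0.041 with limma, -0.037 without the libraries rich in red blood cell transcripts, and from -0.10 without engrafted LPS 2 to 0.20 when single libraries were left out. Without engrafted LPS 1, host LPS 3 and host LPS 4 it was at -0.03, -0.0054 and -0.08. Leaving out the libraries rich in red blood cell transcripts gave 0.049 for Irgm1 in controls, 0.057 for Gbp7 between populations after LPS and 0.024 for Igtp under LPS in host microglia. When single libraries were left out, Irgm1 in controls ran from -0.237 to 0.027 (above 0 without host control 7), Gbp7 between populations after LPS from -0.304 to 0.019 (above 0 without engrafted LPS 4), Igtp under LPS in host microglia from -0.197 to 0.032 (above 0 without host LPS 4, and 0.0026 without host control 7) and the Irgm2 interaction from -0.169 to 0.165 (-0.079 without host LPS 1). With library totals the Irgm2 interaction was -0.0068. The cause was not tested. Gbp5, Gbp2 and Iigp1 rest on few reads in controls or after LPS, so small differences in them were not detectable at this depth.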
